A study of Homo sapiens with 12 samples.

Results

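The ATP-binding cassette (ABC) drug efflux pumps examined here were the genes ABCB1, ABCC1, ABCC3, ABCC4, ABCC5, ABCC10 and ABCG2, taken by gene name from the count table. All 7 were found, of 58735 genes in all. They were followed in HK-2 cells, an immortalized line of the human renal proximal tubule, in 12 RNA-seq libraries in 4 groups of 3 samples each. The control samples received water, and treatment in the other groups lasted 48 h. Iohexol, a contrast medium that carries iodine, was used at 75 mg I/mL, the platinum compound cisplatin at 5 μM and the antibiotic vancomycin at 4 mM. Each drug was used at 1 dose and 1 time in 1 cell line, and nothing in the labels states that the 3 samples of a group came from separate cultures, so that the p-values below measure the spread between these samples, which may be technical. In the paper the 3 treatments serve as cell models of drug-induced acute kidney injury, and each is compared with the control group.

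ABC pumps use the energy of ATP binding and hydrolysis at a pair of nucleotide-binding folds to move compounds out of the cell across the plasma membrane. In the kidney they stand beside the SLC carriers: organic anion and cation carriers take compounds up from the blood, and ABC pumps in the brush border or the basolateral membrane pass drugs and their glutathione, glucuronide or sulfate conjugates on. ABCB1 (P-glycoprotein) and ABCG2 (breast cancer resistance protein) are the classical multidrug pumps of the apical membrane, and the ABCC genes encode the multidrug resistance-associated proteins.

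Levels are given in CPM, read counts brought to a common library size and scaled with the TMM factors of all 12 samples, and levels of different genes are compared only after division by gene length (CPM per kb). Total counts per sample were between 14057282 and 18177109, so that 3 counts, the limit set by counting error alone, stand for 0.165 to 0.213 CPM. Samples within a group differed by more than sampling noise (chi-square per degree of freedom 2.34 to 17.5). Of 12 markers fixed for the proximal tubule, 6 to 8 were above 3 counts in all samples of a group, and their summed level was 275.1 to 321.9 CPM in untreated cells. It was 326.5 to 378.9 CPM after iohexol, 317.5 to 345.4 after cisplatin and 523.4 to 551.6 after vancomycin. The sum was carried by GGT1, MME and GPX3, which did not move together: after cisplatin the mean of GPX3 was 128 CPM against 45.0 in untreated cells and that of MME 29.4 against 62.8, and of 5 markers tested 1 was called higher and 2 lower. LRP2 (megalin), SLC22A6 (an organic anion transporter) and HNF4A were at or under 3 counts in all 12 samples. Of 7 markers of renal tubular epithelium, such as the keratins KRT8 and KRT18, 5 to 7 were above 3 counts in every sample of a group, at 1352 to 1978 CPM in sum. Of 6 endothelial, immune and stromal markers the endothelial gene CDH5 was at or under 3 counts in all samples, and the sum was 26.2 to 36.3 CPM in the control and iohexol samples but 49.0 to 54.1 CPM after cisplatin and 42.2 to 47.1 CPM after vancomycin. These markers did not all move together: with vancomycin 3 of 4 tested were called higher and 1, PECAM1, lower. With cisplatin 2 of 3 tested were called higher, and with iohexol 1 of 2. The part of these marker shifts in the results below was not tested, and in bulk RNA fewer cells with a transcript and less of it per cell cannot be told apart.

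The stretches before the start sites are shown for the pumps with the largest fitted changes that the RefSeq table (GRCh38.p14) holds, ABCB1, ABCC4 and ABCG2. The count table gives 1 value per gene whatever start was used. The table had 5 of the 7 pumps with 11 starts in all, 2 for ABCB1, 1 for ABCC4 and for ABCC5, 2 for ABCC10 and 5 for ABCG2. For ABCB1 both starts are shown, and for ABCG2 both of those with a GENCODE 29 coding transcript that begins within 50 bases. Each line holds the 250 bases before the start, 5′ to 3′ on the gene's strand, which is the minus strand for all 3 genes. Capitals mark matches on either strand to any of 8 short motifs, namely the CCAAT box with its own letters, the GC box written as GGGCGG, the TATA box as TATAAA, the antioxidant response core that NRF2 binds as TGACNNNGC, the xenobiotic response core as GCGTG, the hypoxia response core as ACGTG, an NFAT-type core as TGGAAA and the E-box as CACGTG, which overlaps the hypoxia core on both strands.
ABCB1, upstream start, chr7:87713296-87713545: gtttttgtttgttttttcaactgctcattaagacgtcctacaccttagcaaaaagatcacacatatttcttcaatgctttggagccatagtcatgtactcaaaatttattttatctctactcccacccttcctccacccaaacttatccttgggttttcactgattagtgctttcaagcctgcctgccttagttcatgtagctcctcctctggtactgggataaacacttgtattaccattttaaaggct
ABCB1, downstream start, chr7:87600885-87601134: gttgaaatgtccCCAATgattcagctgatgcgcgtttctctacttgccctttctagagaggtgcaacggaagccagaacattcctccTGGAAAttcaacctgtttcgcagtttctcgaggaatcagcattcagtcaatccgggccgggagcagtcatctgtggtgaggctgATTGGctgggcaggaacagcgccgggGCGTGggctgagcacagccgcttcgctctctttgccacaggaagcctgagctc
ABCC4, chr13:95301452-95301701: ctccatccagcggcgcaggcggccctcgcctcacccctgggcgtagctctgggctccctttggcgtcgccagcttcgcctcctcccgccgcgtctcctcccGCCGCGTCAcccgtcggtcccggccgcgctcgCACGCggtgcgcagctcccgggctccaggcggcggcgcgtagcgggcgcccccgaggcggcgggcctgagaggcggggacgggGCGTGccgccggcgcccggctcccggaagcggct
ABCG2, upstream of the pair, chr4:88159291-88159540: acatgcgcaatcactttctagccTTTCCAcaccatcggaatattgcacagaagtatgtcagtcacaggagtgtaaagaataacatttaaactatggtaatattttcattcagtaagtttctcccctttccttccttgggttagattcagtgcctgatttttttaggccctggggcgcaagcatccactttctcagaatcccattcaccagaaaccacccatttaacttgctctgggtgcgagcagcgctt
ABCG2, downstream of the pair, chr4:88158910-88159159: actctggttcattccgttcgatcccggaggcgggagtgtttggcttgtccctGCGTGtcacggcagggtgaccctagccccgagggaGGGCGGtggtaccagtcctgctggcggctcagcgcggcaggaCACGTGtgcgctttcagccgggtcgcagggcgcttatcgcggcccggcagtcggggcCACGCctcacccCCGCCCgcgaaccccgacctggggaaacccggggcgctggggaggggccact

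The 2 ABCB1 starts had unlike sequence before them. The upstream one had 39.2% G+C, 1 CpG and no match to any of the 8 motifs, whereas the downstream one had 55.6% G+C, 12 CpG, CCAAT matches at -238 and -79, a GCGTG match at -53 and a TGGAAA match at -163. No GENCODE 29 coding transcript began within 50 bases of the downstream start, against 3 of 11 transcripts at the upstream one. Positions are those of the first base of the match, counted back from -1 before the start. ABCC4 was at the other end, with 80.4% G+C, 42 CpG, 1 TGACNNNGC match at -149 and GCGTG matches at -117 and -34. At ABCG2 the upstream window of the pair had 43.6% G+C and 5 CpG with 1 TGGAAA match at -227. The downstream window had 71.2% G+C and 27 CpG with GC boxes at -163 and -52, GCGTG matches at -198 and -64 and a CACGTG at -121. Over all 35116 starts of the table the median was 58% G+C with 11 CpG, and the share of windows with a match was 32% for CCAAT, 42.6% for GGGCGG, 10.7% for TATAAA, 10.9% for TGACNNNGC, 32.2% for GCGTG, 18.5% for ACGTG, 18% for TGGAAA and 6.34% for CACGTG. Matches to such short motifs are common, and they describe the sequence only.

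In untreated cells ABCB1 was the pump with the highest level per length, at 31.5 ± 1.8 CPM per kb (SD, n = 3). ABCC1, which exports glutathione conjugates and leukotrienes, was next at 15.7 ± 0.859, and ABCC4, an exporter of cyclic nucleotides and urate, was at 10.4 ± 0.896. ABCC5, another cyclic nucleotide exporter, lay just below at 9.12 ± 0.331 CPM per kb, its highest sample being just under the lowest ABCC4 sample. ABCC10 (2.92 ± 0.592) and ABCC3, a basolateral exporter of bile acids and glucuronides (2.53 ± 0.460), could not be ordered beyond their spread. ABCG2 was almost absent at 0.124 ± 0.0843 CPM per kb, which rests on 3, 17 and 9 reads. Expressed as a share of the summed level of the 7 pumps, ABCB1 made up 43.6% ± 2.0 (SD, n = 3), ABCC1 21.7% ± 1.33, ABCC4 14.4% ± 1.18, ABCC5 12.6% ± 0.413, ABCC10 4.04% ± 0.826, ABCC3 3.50% ± 0.607 and ABCG2 0.173% ± 0.121.

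With vancomycin the order of the pump RNAs differed from that of untreated cells. ABCB1 took 19.4% ± 1.33 (SD, n = 3) of the summed level in place of 43.6%, and ABCC1 became the largest part with 32.7% ± 1.22. ABCC3 had 12.7% ± 0.671 in place of 3.50% and ABCG2 2.38% ± 0.485 in place of 0.173%, whereas ABCC4 was at 9.22% ± 0.957. With cisplatin ABCB1 stayed first with 48.3% ± 0.664 and ABCC4 had 7.53% ± 0.294. With iohexol ABCB1 was also first, at 37.6% ± 1.13 and ABCC5 at 16.4% ± 0.422. The summed level was 72.2 ± 1.46 CPM per kb (SD, n = 3) in untreated cells. It was 65.9 ± 1.91 with iohexol, 51.7 ± 0.843 with cisplatin and 55.0 ± 4.87 with vancomycin. Shares within a sample do not depend on the scaling between samples, whereas the summed levels do.

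**Figure D1:**
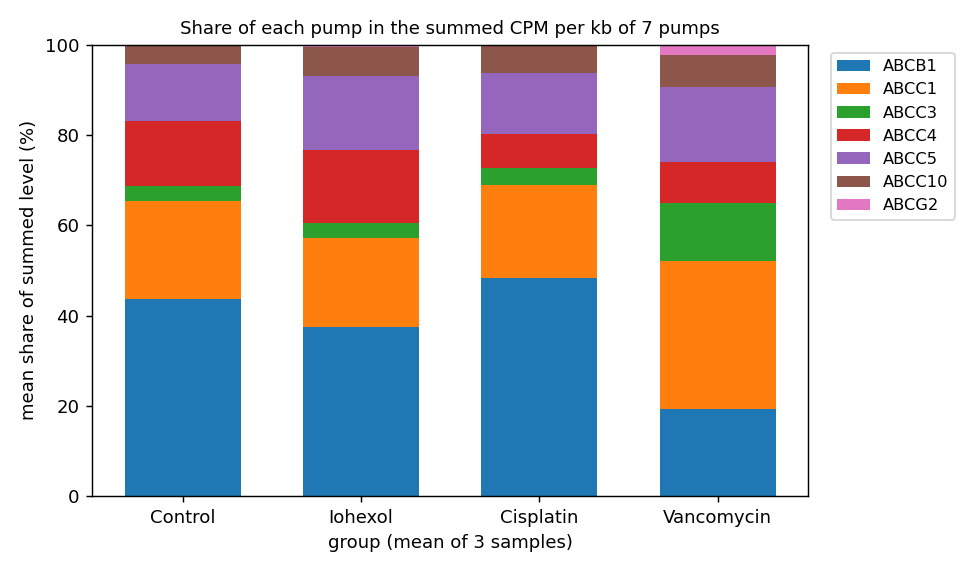
Stacked bars give the mean share (%) of each of 7 pump genes in their summed CPM per kb, for the control, iohexol, cisplatin and vancomycin groups (mean of 3 samples each). The ABCB1 part shrinks from 43.6% in the control group to 19.4% with vancomycin, where the ABCC1 part (32.7%) is the largest and the ABCC3 part reaches 12.7%.

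To find which pumps differed from untreated cells, the quasi-likelihood test of edgeR was run for each drug over all genes past a filter on low counts. SE is the error of the log2 fold change, and a gene was called when its Benjamini-Hochberg adjusted p was under 0.05. A differentially expressed gene (DEG) in addition had a log2 fold change above 1 or below -1. With vancomycin 5 of the 7 pumps were called, 3 higher and 2 lower (2 and 2 with library sizes only), against 57.9% of all 15819 genes tested (29.0% higher, 28.8% lower). Of these, 4 were DEGs, against 18.5% of the genes tested, and the samples of 4 pumps did not overlap those of the control group, against 63.2%. With cisplatin 5 of the 6 pumps that could be tested were called, all lower, against 59.8% of 15876 genes (30.6% lower). With library sizes in place of TMM factors the pumps were 1 higher and 3 lower. With TMM factors 1 was a DEG, against 16.3%, and 5 did not overlap, against 65.1%. With iohexol 3 pumps were called, 2 higher and 1 lower, against 21.0% of 15657 genes (11.2% higher, 9.77% lower). The directions turned with the scaling, with 1 higher and 2 lower under RLE factors and 3 higher and 0 lower with library sizes only. The samples of 6 pumps did not overlap, against 37.9%. For ABCC3 the gap was only from 20.8 to 20.83 CPM, in levels scaled with TMM factors. None of the pumps was a DEG, against 5.28%. That count of 0 was 1 with the unadjusted p, 1 with limma-voom and 0 with DESeq2. The median log2 fold change over the tested pumps was 0.07 with iohexol against 0.01 over all genes, -0.38 with cisplatin against 0.01, and 0.16 with vancomycin against -0.01. The 3 comparisons share the same control samples.

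ABCB1 (ENSG00000085563), on chromosome 7 of GRCh38 from 87503633 to 87713323, encodes P-glycoprotein, which exports a wide range of hydrophobic drugs. Its level was 194, 174 and 180 CPM in the control samples, 139, 139 and 154 CPM with iohexol, 150, 142 and 143 CPM with cisplatin and 60.4, 59.8 and 64.9 CPM with vancomycin. All 9 treated samples lay below the lowest control, and the vancomycin samples were far below the rest. The fall with vancomycin was 3.05-fold, a log2 fold change of -1.61 (SE 0.09, edgeR adjusted p = 3.43e-13). With cisplatin ABCB1 fell by 0.34 on the log2 scale (SE 0.06, edgeR adjusted p = 0.000207), but the call ended when library sizes were used without TMM factors (log2 fold change -0.12, adjusted p = 0.109). With iohexol it fell by 0.33 on the log2 scale (SE 0.09, edgeR adjusted p = 0.0203). This smaller change kept its call in 7 of 14 alternatives, with adjusted p from 0.00217 to 0.0860, and among the fits that left out 1 sample it held only without iohexol replicate 3. Of the 31-base stretches of ABCB1 transcripts, 5.45% also occur in its neighbour ABCB4, the phospholipid exporter of bile, whose level was only 1.42 to 2.69 CPM in all 12 samples.

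ABCG2 (ENSG00000118777), on chromosome 4 from 88090264 to 88231322, encodes a pump of urate, sulfate conjugates and many drugs. It had 3, 17 and 9 reads in the control samples (0.218, 1.07 and 0.592 CPM), 21, 23 and 26 reads with iohexol (1.45, 1.47 and 1.74 CPM), 15, 3 and 8 reads with cisplatin (0.909, 0.185 and 0.473 CPM) and 84, 100 and 125 reads with vancomycin (5.26, 6.75 and 7.70 CPM). The vancomycin samples lay above all others and the iohexol samples above the controls. With vancomycin the log2 fold change was 3.30 (SE 0.34, edgeR adjusted p = 1.08e-08), the largest among the pumps with this drug. It also had the largest SE, and the control mean of 0.626 ± 0.426 CPM (SD, n = 3) rests on few reads. With iohexol the log2 fold change was 1.29 (SE 0.44) and missed the threshold (edgeR adjusted p = 0.0586). Control replicate 2 had the most reads of its group. Without it the log2 fold change was 1.90 and the adjusted p 0.0313, and over 13 alternatives the adjusted p ran from 0.0313 to 0.165. In the cisplatin comparison ABCG2 did not pass the filter, and no difference from the control group was detectable at this depth.

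**Figure D2:**
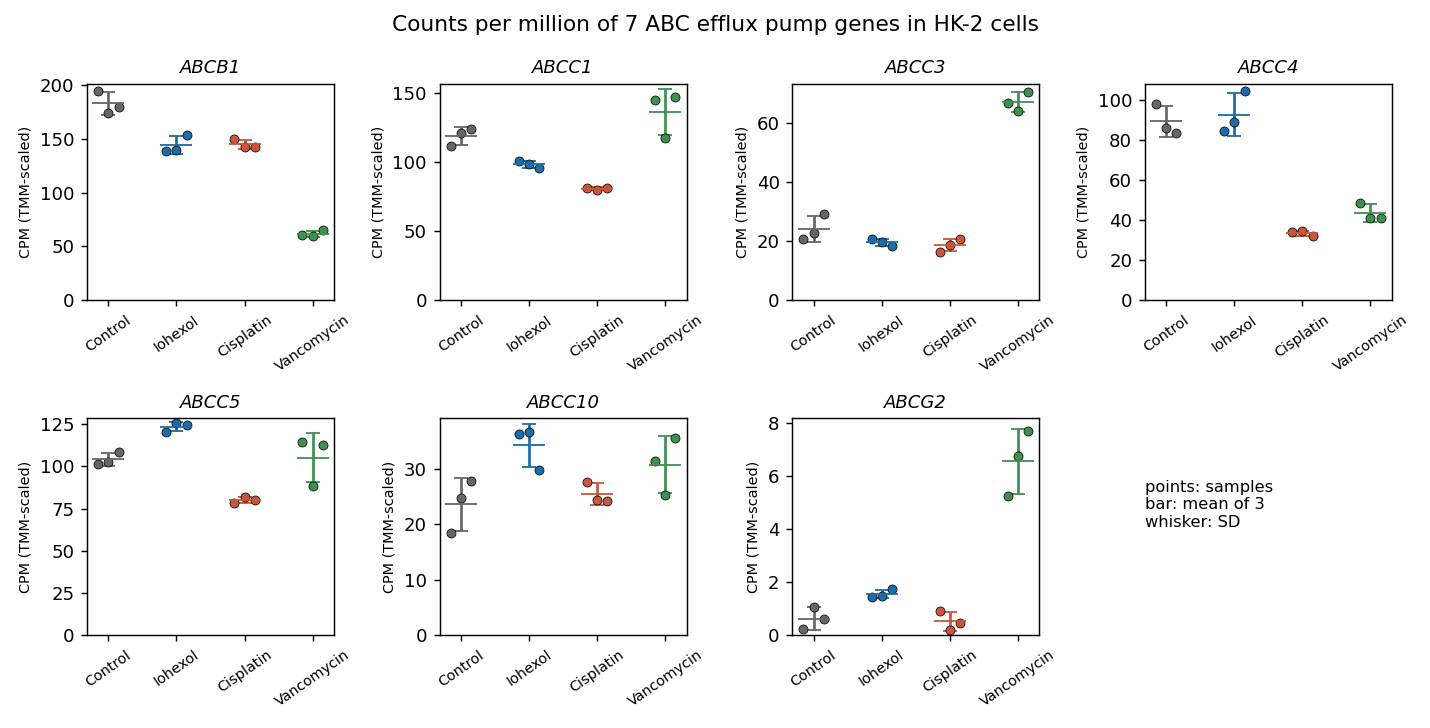
Each panel shows 1 pump gene, with CPM (TMM-scaled, axis from 0) for the 3 samples of the control, iohexol, cisplatin and vancomycin groups as points, their mean as a bar and the SD as whiskers. The vancomycin samples sit lowest for ABCB1 (59.8 to 64.9 CPM) and highest for ABCC3 (64.0 to 70.7 CPM) and ABCG2 (5.26 to 7.70 CPM), and the cisplatin samples sit lowest for ABCC4 (32.1 to 34.6 CPM).

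Among the ABCC pumps, ABCC3 (ENSG00000108846), on chromosome 17 from 50634777 to 50692252, was at 20.8, 22.8 and 29.3 CPM in the control samples, 20.8, 19.6 and 18.5 CPM with iohexol, 16.5, 18.8 and 20.7 CPM with cisplatin and 66.8, 64.0 and 70.7 CPM with vancomycin. The iohexol and cisplatin samples lay just below the lowest control, and the vancomycin samples stood far above all others. ABCC3 rose 2.68-fold with vancomycin, a log2 fold change of 1.42 (SE 0.12, edgeR adjusted p = 3.72e-10). With cisplatin it fell by 0.38 on the log2 scale (SE 0.13, edgeR adjusted p = 0.0151). That call was lost without control replicate 3 (adjusted p = 0.0985), without cisplatin replicate 1 (0.0879) and with library sizes only (0.276). With iohexol the log2 fold change was -0.29 (SE 0.14, edgeR adjusted p = 0.175), which did not pass the test.

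ABCC4 (ENSG00000125257), on chromosome 13 from 95019829 to 95301475, was the pump with the largest response to cisplatin. Its level was 98.3, 86.5 and 83.8 CPM in the control samples, 84.6, 89.5 and 105 CPM with iohexol, 34.0, 34.6 and 32.1 CPM with cisplatin and 48.6, 41.3 and 41.0 CPM with vancomycin. The control and iohexol samples overlapped, whereas all cisplatin and vancomycin samples lay below them. ABCC4 fell 2.67-fold with cisplatin, with a log2 fold change of -1.41 (SE 0.08, edgeR adjusted p = 1.13e-10). With vancomycin it fell 2.11-fold, with a log2 fold change of -1.08 (SE 0.10, edgeR adjusted p = 4.64e-09). With iohexol the log2 fold change was 0.07 (SE 0.11, edgeR adjusted p = 0.680).

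ABCC1 (ENSG00000103222), on chromosome 16 from 15949577 to 16143074, was at 112, 121 and 124 CPM in the control samples and at 81.4, 79.8 and 81.1 CPM with cisplatin, where it fell by 0.56 on the log2 scale (SE 0.06, edgeR adjusted p = 1e-06). The iohexol samples, at 100.5, 98.7 and 95.7 CPM, also lay below all controls, but the log2 fold change of -0.26 missed the threshold (SE 0.09, edgeR adjusted p = 0.0526; 0.0481 without iohexol replicate 3). With vancomycin the samples were at 145, 117 and 147 CPM and overlapped the controls. The log2 fold change there was 0.16 (SE 0.10, edgeR adjusted p = 0.171). It was 0.26 with an adjusted p of 0.0193 without vancomycin replicate 2, the sample that was lowest of its group for ABCC1, ABCC5, ABCC3 and ABCC10.

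ABCC5 (ENSG00000114770), on chromosome 3 from 183919934 to 184018015, is the cyclic nucleotide exporter named above. It was at 102, 103 and 109 CPM in the control samples, 120, 126 and 124 CPM with iohexol, 78.1, 81.7 and 80.0 CPM with cisplatin and 114, 88.5 and 113 CPM with vancomycin. The iohexol samples were all above and the cisplatin samples all below the controls. It fell by 0.39 on the log2 scale with cisplatin (SE 0.06, edgeR adjusted p = 5.85e-05), and rose by 0.26 with iohexol (SE 0.08, edgeR adjusted p = 0.0439). The rise with iohexol kept its call in 4 of 14 alternatives (adjusted p from 0.0148 to 0.222), and of the fits that left out 1 sample it held only without iohexol replicate 3. With vancomycin the log2 fold change was -0.03 (SE 0.10, edgeR adjusted p = 0.828).

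ABCC10 (ENSG00000124574), on chromosome 6 from 43427366 to 43450430, encodes a pump known for taxane and nucleoside analog export. Its level was 18.4, 24.7 and 27.8 CPM in the control samples, 36.2, 36.7 and 29.7 CPM with iohexol, 27.7, 24.4 and 24.2 CPM with cisplatin and 31.4, 25.3 and 35.5 CPM with vancomycin. The iohexol samples lay above the controls, and those of the other drugs overlapped them. It rose with iohexol (log2 fold change 0.55, SE 0.15, edgeR adjusted p = 0.0238), a call that was lost without control replicate 1 (0.0697) or 2 (0.0617) and without iohexol replicate 1 (0.0806) or 2 (0.0876). It rose with vancomycin as well (log2 fold change 0.34, SE 0.14, edgeR adjusted p = 0.0433). This call was lost without control replicate 1 (0.240) or 2 (0.0510) and without vancomycin replicate 1 (0.0930) or 3 (0.226), and with DESeq2 (0.0556). With cisplatin the log2 fold change was 0.11 (SE 0.12, edgeR adjusted p = 0.484), and with library sizes only it was 0.32 and called (adjusted p = 0.036). Exons of ABCC10 share 79 bases (0.977% of its exon bases) with DLK2 on the opposite strand, which had 90 to 144 reads per sample, and the strand setting of the counting is not given in the sources used here.

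The scaling between samples bears on the smaller values. When library sizes replaced the TMM factors, the median over all genes moved on the log2 scale by 0.218 for cisplatin, 0.0714 for iohexol and -0.0764 for vancomycin. The 4 DEGs with vancomycin and the fall of ABCC4 with cisplatin were several times larger than these shifts and were called under both scalings.

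Drugs were then set against each other by contrasts in 1 fit of all 12 samples. Between vancomycin and cisplatin 6 of the 7 pumps were called, 5 higher and 1 lower with vancomycin (3 and 1 with library sizes only), against 64.7% of 17073 genes tested (34.7% higher, 30.0% lower). The samples of 6 pumps did not overlap, against 71.2%, and 3 were DEGs, against 28.5%. ABCB1 was lower with vancomycin (log2 fold change -1.23, SE 0.08, edgeR adjusted p = 4.12e-11), and ABCG2 (3.63, SE 0.39) and ABCC3 (1.85, SE 0.12) were higher. ABCC1 was 1.69-fold higher with vancomycin than with cisplatin (log2 fold change 0.76, SE 0.09, edgeR adjusted p = 2.31e-07), although vancomycin against control had not been called. ABCC4, which fell with both drugs, was higher with vancomycin by a log2 fold change of 0.38 (SE 0.10, edgeR adjusted p = 0.00327), and this difference ended with library sizes only (0.04, adjusted p = 0.733).

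Between vancomycin and iohexol 6 pumps were called, 3 higher and 3 lower with vancomycin, against 56.6% of the genes tested (29.0% higher, 27.6% lower). The samples of 6 pumps did not overlap, against 59.4%, and 4 were DEGs, against 20.1%. ABCB1 (log2 fold change -1.22, SE 0.08) and ABCC4 (-1.09, SE 0.10) were lower, and ABCC3 (1.77, SE 0.12), ABCG2 (2.08, SE 0.34, edgeR adjusted p = 2.66e-05) and ABCC1 (0.47, SE 0.09) were higher. ABCC5 was lower by 0.23 on the log2 scale (edgeR adjusted p = 0.0333), a call kept in 10 of 14 alternatives. Among the fits that lost it were those without iohexol replicate 2 (0.0825) and without vancomycin replicate 2 (0.215). Between cisplatin and iohexol 5 pumps were called, all lower with cisplatin, against 54.0% of the genes tested (26.0% higher, 27.9% lower). The samples of 5 did not overlap, against 60.9%, and 2 were DEGs, against 17.5%. The difference of ABCC4 had the smallest p of these (log2 fold change -1.47, SE 0.10, edgeR adjusted p = 2.54e-10). ABCC5 differed by a log2 fold change of -0.63 (SE 0.09) and ABCG2 by -1.56 (SE 0.45, edgeR adjusted p = 0.00602). ABCC10 was lower by 0.43 on the log2 scale (edgeR adjusted p = 0.0160), a call lost without iohexol replicate 1 (0.0506) or 2 (0.0610), without cisplatin replicate 2 (0.0581) or 3 (0.0613) and with library sizes only (0.0872). ABCC1 was lower by 0.28 on the log2 scale (SE 0.09, edgeR adjusted p = 0.00978), a call that ended with library sizes only (0.146). For ABCB1 the log2 fold change between cisplatin and iohexol was 0.01 with a SE of 0.08, so that a difference between these drugs was not detected.

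**Figure D3:**
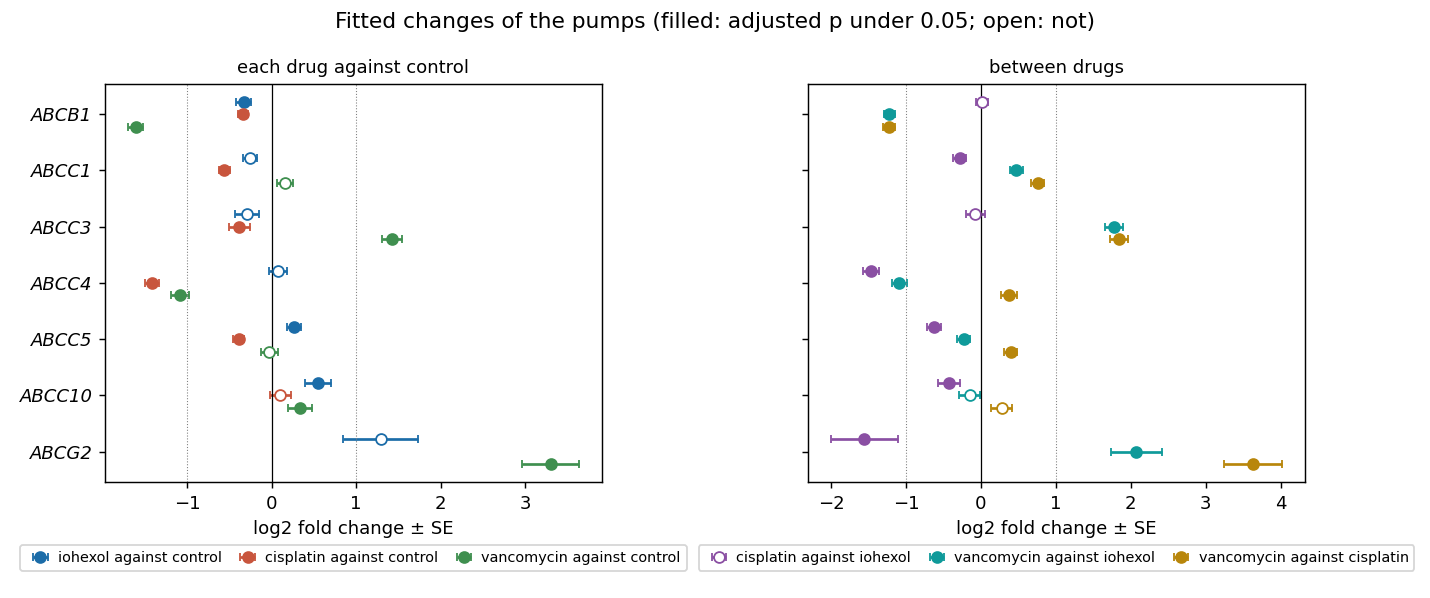
Log2 fold changes (points) with their standard errors (whiskers) of the 7 pumps for each drug against control (left) and between drugs (right), with filled points at an adjusted p under 0.05 and dotted lines at -1 and 1. Vancomycin has 4 points past the dotted lines on the left (ABCB1 at -1.61, ABCC4 at -1.08, ABCC3 at 1.42 and ABCG2 at 3.30), and cisplatin has ABCC4 at -1.41; ABCG2 with cisplatin was not tested.

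The other 41 genes of the ABC family were taken as a list. Of these, 26 passed the filter with iohexol, 25 with cisplatin and 24 with vancomycin. With iohexol 5 rose and 2 fell, with cisplatin 12 rose and 9 fell (14 and 6 with library sizes only), and with vancomycin 6 rose and 8 fell. Of all genes tested 21.0% were called with iohexol, 59.8% with cisplatin and 57.9% with vancomycin, and the counts of the lists that follow are to be read against the same shares. Among 7 further exporters of drugs, bile acids and conjugates only ABCB4, ABCC2 and ABCC6 could be tested. ABCC2, the apical conjugate exporter of liver and proximal tubule, had 2.13 ± 0.269 CPM (SD, n = 3) without a drug and rose with iohexol (4.17 ± 0.864 CPM, log2 fold change 0.99, edgeR adjusted p = 0.0137) and with cisplatin (3.30 ± 0.456 CPM, log2 fold change 0.64, edgeR adjusted p = 0.0290). With vancomycin it was at 3.05 ± 0.639 CPM (log2 fold change 0.48, edgeR adjusted p = 0.142). ABCB4 and ABCC6 were not called with any drug.

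Of 16 lipid and sterol transporters 6 or 7 could be tested. ABCA1, which loads cholesterol onto apolipoprotein A-I, had 407 ± 15.4 CPM (SD, n = 3) without a drug and fell to 193 ± 18.7 with iohexol and to 159 ± 1.83 with cisplatin, log2 fold changes of -1.06 and -1.36. With vancomycin ABCA1 was at 311 ± 29.4 CPM, all samples also below the controls. ABCA3, a phospholipid transporter of lamellar bodies, fell from 68.1 ± 7.73 to 31.6 ± 1.23 CPM with cisplatin and to 18.9 ± 0.816 CPM with vancomycin, log2 fold changes of -1.11 and -1.89. ABCA12, a lipid transporter of keratinocytes, fell with cisplatin (log2 fold change -1.45) and rose with iohexol (1.04) and vancomycin (0.96), and ABCA4, the retinoid transporter of photoreceptors, rose with cisplatin (1.47) and iohexol (1.28) at mean levels of at most 1.48 CPM. Of the channel-type members, ABCC9, a subunit of ATP-sensitive potassium channels, fell from 21.5 ± 1.53 CPM to 9.46 ± 0.993 with iohexol and 6.43 ± 1.12 with vancomycin. It fell with cisplatin as well, to 13.3 ± 1.21 CPM (log2 fold change -0.70). CFTR, a chloride channel, rose with iohexol from 0.493 ± 0.0762 to 1.42 ± 0.354 CPM (edgeR adjusted p = 0.0162).

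All 10 tested transporters of organelles and peptides were called with cisplatin, 7 higher and 3 lower, and 3 were higher and 2 lower with vancomycin. TAP1, a subunit of the peptide transporter that feeds MHC class I, rose with vancomycin from 40.8 ± 4.37 to 88.2 ± 6.43 CPM (SD, n = 3; log2 fold change 1.07), and so did ABCB6, a porphyrin transporter, from 2.27 ± 0.544 to 5.22 ± 0.992 CPM (1.15). Of the 4 soluble ABC proteins, which act in translation, 3 rose with cisplatin.

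**Figure D4:**
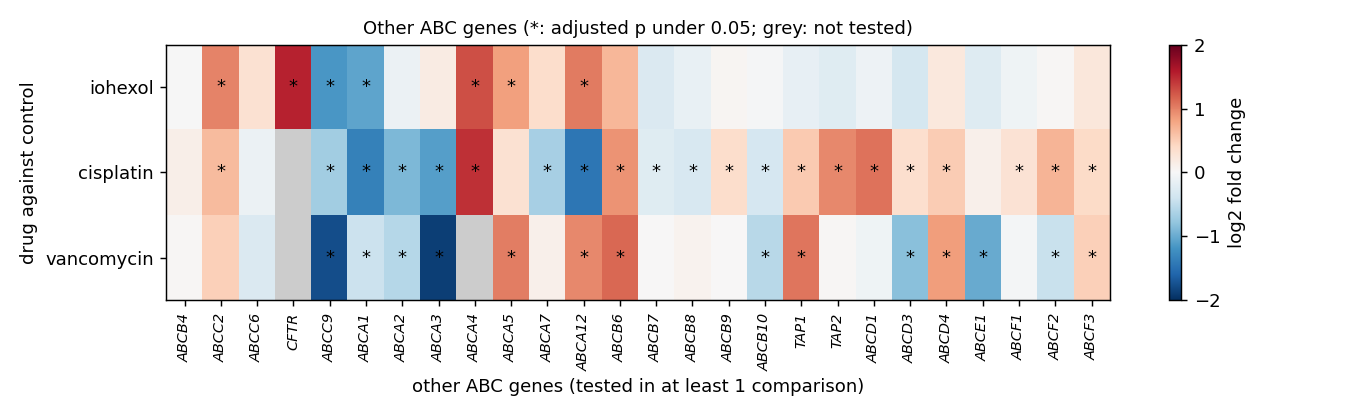
Colors give the log2 fold change (scale from -2 to 2) of the other ABC genes tested in at least 1 comparison (columns) for iohexol, cisplatin and vancomycin against control (rows), with asterisks at an adjusted p under 0.05 and grey where a gene was not tested. Asterisks stand on 7 genes in the iohexol row, 21 in the cisplatin row and 14 in the vancomycin row.

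The SLC carriers that bring drugs to the pumps were mostly low or absent in these cells. Of 27 carriers 14 or 15 were tested. SLC22A2, the cation carrier through which cisplatin enters the tubule, had 0 reads in the control samples and at most 6 in any other, and SLC47A1, the proton exchanger for organic cations, had at most 1 read in any sample. Both were left untested. SLC31A1, a copper importer also linked to platinum uptake, had 95.9 ± 1.48 CPM (SD, n = 3) without a drug and fell with cisplatin to 72.3 ± 2.91 CPM (log2 fold change -0.41, edgeR adjusted p = 4.3e-05). It was not called with iohexol (0.08) or vancomycin (-0.13). Among the organic anion transporting polypeptides, SLCO4C1, the digoxin carrier of the proximal tubule, was at 25.3 ± 4.78 CPM and fell to 1.31 ± 0.391 with cisplatin and 3.89 ± 0.763 with vancomycin, log2 fold changes of -4.26 and -2.73. With iohexol SLCO4C1 was at 16.6 ± 2.0 CPM. SLCO2A1, a prostaglandin carrier, fell from 271 ± 17.9 to 26.7 ± 0.935 CPM with vancomycin (log2 fold change -3.38). It was also lower with iohexol (133 ± 2.83 CPM) and with cisplatin (78.9 ± 2.71 CPM). SLCO2B1 fell from 8.54 ± 1.32 to 0.502 ± 0.0838 CPM with cisplatin (-4.06) but rose to 15.9 ± 2.12 CPM with vancomycin (0.86). SLCO4A1, a thyroid hormone carrier, rose with iohexol from 185 ± 10.2 to 458 ± 22.7 CPM (log2 fold change 1.33) and fell with cisplatin to 92.5 ± 8.02 CPM. Over the list 4 carriers rose and 3 fell with iohexol (against 21.0% of all genes called), 2 rose and 8 fell with cisplatin (against 59.8%), and 5 rose and 3 fell with vancomycin (against 57.9%).

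The ABCC pumps export conjugates, and the enzymes that make these were followed as a list of 25 genes of which 19 were tested with each drug. With vancomycin 15 rose and 2 fell, against 57.9% of all genes called, with a median log2 fold change of 0.70 against -0.01 over all genes. UGDH, which makes the glucuronide donor, rose from 129.6 ± 11.4 to 306 ± 25.6 CPM (SD, n = 3; log2 fold change 1.2), and UGT2B7, a glucuronosyltransferase of the kidney, from 29.6 ± 0.987 to 61.4 ± 1.97 CPM (1.01). The glutathione transferases GSTP1 and GSTO1 rose by log2 fold changes of 0.95 and 0.94. With cisplatin 4 of the 19 rose and 8 fell, a balance that turned to 7 and 5 with library sizes only, and UGT2B7 fell there to 12.4 ± 0.471 CPM (log2 fold change -1.25). With iohexol 6 rose and 2 fell, among them MGST3 (0.57) and GSTM3 (0.57) higher and GSTA4 (-0.84) and GSTO1 (-0.42) lower.

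Of 22 transcription factors and nuclear receptors known to act on pump genes 18 were tested. With vancomycin 10 were higher and 2 lower (7 and 2 with library sizes only), against 57.9% of all genes called. With cisplatin 5 were higher and 10 lower (6 and 7 with library sizes only), against 59.8%, and with iohexol 2 were higher and 1 lower, against 21.0%. The bile acid receptor gene NR1H4 was called with all 3 drugs, from 3.53 ± 1.18 CPM (SD, n = 3) to 11.6 ± 0.586 with iohexol, 1.25 ± 0.439 with cisplatin and 8.22 ± 0.508 with vancomycin (log2 fold changes 1.74, -1.49 and 1.19). RXRA, the shared partner of these receptors, and PPARA, a fatty acid sensor, fell with cisplatin by 1.29 and 1.46 on the log2 scale. RXRA rose with vancomycin (0.45). HIF1A, the hypoxia factor, rose with iohexol (log2 fold change 1.04) and fell with cisplatin (-0.84), and VDR (0.81), ESRRA (0.82) and HSF1 (0.64) rose with vancomycin as they did with cisplatin (0.84, 0.66 and 0.32). Of 13 genes that anchor pumps at the membrane or carry them there 12 were tested. Ezrin (EZR), which ties brush border proteins to actin, fell with vancomycin from 735 ± 31.5 to 370 ± 19.3 CPM (log2 fold change -1.03), as did caveolin (CAV1, -1.19) and radixin (RDX, -0.76). With cisplatin MYO5B, a motor of apical recycling, fell by 0.88 on the log2 scale, and CAV1 fell by 0.66. The counts were 1 higher and 1 lower with iohexol, against 21.0% of all genes called, 4 and 6 with cisplatin (5 and 3 with library sizes only), against 59.8%, and 3 and 7 with vancomycin, against 57.9%.

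For each pump the genes with the most similar pattern were found by Pearson's r of log2 CPM over the 12 samples among 14699 genes. The samples fall into 4 groups and share their libraries, so r is given as a description. ABCB1 was most like MITF (r = 0.995), a transcription factor of melanocytes and lysosomal genes, RP1 (0.993) and TPX2 (0.992), a spindle protein. ABCC4 was most like APBB1IP (0.997), PLCB4 (0.996) and INPP4B (0.994), and ABCC3 most like the pseudogene TPI1P1 (0.992), the collagen gene COL6A1 (0.986) and TRIM16 (0.985). For ABCC1 these were TAPBP (0.984), ZMIZ1 (0.984) and MYO9B (0.981), for ABCC5 RNF213 (0.978), PI4KA (0.977) and SPTBN1 (0.968), for ABCC10 SBF1 (0.922), JADE2 (0.918) and MYO18A (0.912), and for ABCG2 CSAD (0.956), ITGAX (0.953) and PTGDS (0.951). Among the pumps themselves, ABCB1 ran against ABCC3 (r = -0.903) and ABCG2 (-0.864), and its r was 0.481 with ABCC4 and -0.0600 with ABCC5.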

How the data were processed

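RNA of 12 HK-2 samples was sequenced after poly(A) selection and NEBNext library preparation. The authors deposited raw counts of reads per gene, without normalization. The submitters' processing notes name CASAVA 1.8, fastp, HISAT2 2.0.5, featureCounts 1.5.0-p3 and DESeq2 1.20.0. The genome build and strand setting are not given in the sources used here; all 58735 genes had the same start and end in GENCODE release 29 (GRCh38). Samples were grouped by their titles. Total counts were 14057282 to 18177109, and intervals or floors cover counting error only.

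Log2 fold changes came from edgeR 4.0.16 under R 4.3.3, with TMM factors, filterByExpr (at least 10 counts, total at least 15), glmQLFit and glmQLFTest, in 1 fit per drug with the control samples and, between drugs, in 1 fit of all samples. The voom method of limma 3.58.1 was an alternative. Benjamini-Hochberg adjustment ran over all genes tested, and the SE is the log2 fold change over the square root of F. CPM use the totals times TMM factors, and log2 CPM a prior count of 2. Shared sequence is the percent of 31-base stretches, at every 5 bases, found in another gene. The steps were tested on simulated data. Figures were drawn with matplotlib 3.10.9.

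The pumps and lists were chosen with earlier results of these data known. Named were all pumps, up to 4 called genes with the largest change per list and drug, ABCC2, SLC22A2, SLC47A1, SLC31A1, and the 3 genes most like each pump at a mean of at least 1 CPM. ABCB4, ABCC6 and the promoters shown were chosen after values were seen. Alternatives were DESeq2 1.42.0, limma-voom, RLE or no scaling factors, other filters, the unadjusted p, a replicate block, other sample sets and leaving out each sample. A marker list of other nephron segments is not reported here.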

Additional observations from a re-analysis of the deposited data

How the results depend on the processing

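With iohexol against control the 3 called pumps became 5 with the unadjusted p and 1 with the replicate block, and 0 to 4 when 1 sample was left out. The 0 DEGs became 1, ABCG2, with the unadjusted p, limma-voom, library sizes only, all genes with a count or all 4 groups in 1 fit, and were 0 to 1 when 1 sample was left out. Between cisplatin and iohexol the 5 called pumps became 3 with library sizes only, and the 2 DEGs became 1 with 10 counts in every sample, a filter that drops ABCG2. For cisplatin and vancomycin against control and for vancomycin against the other drugs the number called in either direction stayed within 1.5 times of the reported one in the alternatives run, but with library sizes only the split was 1 higher and 3 lower for cisplatin against control (reported 0 and 5) and 3 higher and 1 lower for vancomycin against cisplatin (reported 5 and 1).

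Signs turned only where the reported log2 fold change had not been called. With library sizes only this was ABCC3 between cisplatin and iohexol (0.054) and ABCC10 between vancomycin and cisplatin (-0.0602), and with all 4 groups in 1 fit ABCC5 with vancomycin (0.0131). When 1 sample was left out, ABCC4 with iohexol ran from -0.0187 to 0.144, ABCC10 with cisplatin from -0.0466 to 0.224, ABCC5 with vancomycin from -0.0906 to 0.0896, ABCB1 between cisplatin and iohexol from -0.0161 to 0.0565 and ABCC3 between them from -0.152 to 0.0120. With library sizes only several calls against control ended, those of ABCB1 with iohexol, ABCB1 and ABCC3 with cisplatin and ABCC10 with vancomycin. The ABCC4 and ABCC5 calls between vancomycin and cisplatin and the ABCC1 and ABCC10 calls between cisplatin and iohexol also ended. ABCC10 with cisplatin and ABCG2 with iohexol became called. With this scaling the median over all genes moved by 0.218 for cisplatin against control and by -0.335 for vancomycin against cisplatin. The cause of the changes when a sample was left out was not tested.

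Same-numbered samples of different groups had correlations of their deviations of -0.184 to 0.103. With 3 samples per group this cannot decide whether they shared a culture or a batch, and the labels do not say. With the replicate block 1 pump was called with iohexol in place of 3, and the other counts of called pumps were as reported. Depth limits ABCG2, whose control samples had 3 to 17 reads.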
